A study of Mus musculus with 4 samples.

Results

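The vesicle coats that carry proteins between the endoplasmic reticulum (ER) and the Golgi were described with 35 genes, found by symbol among the 32285 genes of a single-cell RNA-seq study of mouse pancreatic islets, and all 35 were found. They fall into 4 subgroups: 12 genes of the COPII coat and its exit sites, 11 genes of cargo receptors and vesicle fusion, 3 KDEL receptors, and 9 genes of the COPI coat and the Golgi. The study asked which genes depend on Xbp1 in beta cells of NOD mice, a strain that develops autoimmune diabetes. Its samples were 2 Xbp1β-/- samples, called knockout, and 2 Xbp1fl/fl samples, called wild type and carrying the floxed allele without a stated deletion. All 4 came from mice of 5 weeks, and all mice received tamoxifen at 10 mg/ml over 5 consecutive days. Islets were picked by hand, cultured overnight and taken apart with accutase before 10x Genomics library preparation. The promoter that drives Cre, the exons removed and whether the floxed mice carried Cre are not given in the labels.

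The cells of all samples stand in a single matrix whose barcodes carry a number from 1 to 4, taken here as the library. No label ties a library to a sample or a genotype. Genotype, mouse and library therefore cannot be told apart, values are given by numbered library, and no comparison of genotypes was made. Each cell class has at most 1 value per library, so ratios between classes were taken within each library, no test or p-value is given.

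COPII vesicles leave the ER at exit sites that are organised by the scaffold protein Sec16a. The small GTPases Sar1a and Sar1b start the coat, Sec23 and Sec24 proteins form its inner layer and bind cargo, and Sec13 and Sec31a form its outer cage. Mia3 helps to load bulky cargo. Lman1 and Lman2 are lectins that carry glycoproteins, Surf4 and the Tmed proteins are membrane cargo receptors, and Sec22b is a SNARE that drives vesicle fusion. The KDEL receptors bring escaped ER proteins back from the Golgi in vesicles coated by COPI. Copa, Copb1, Copb2, Copg1, Cope, Copz1 and Arcn1 are subunits of the COPI coat. Arfgap3 stimulates GTP hydrolysis by Arf, the GTPase that controls this coat, and Golgb1 is a large tethering protein of the Golgi. Beta cells send a large flow of proinsulin along this route, and Xbp1, which switches on genes when unfolded proteins build up in the ER, is known in several tissues to raise genes of the secretory pathway.

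Of 19987 barcodes, 16146 passed the filter of at least 500 genes and at most 20% mitochondrial UMIs (unique molecular identifiers, each standing for 1 captured transcript end). Libraries 1 to 4 held 82963911, 178396311, 85266513 and 110800927 UMIs, and the kept cells had medians of 13287, 33052, 15759 and 27499 UMIs. Beta cells were cells with at least 5% of UMIs from the insulin gene Ins2, alpha cells with at least 5% from the glucagon gene Gcg and delta cells with at least 3% from the somatostatin gene Sst. Libraries 1 to 4 held 589, 3342, 733 and 2221 beta cells, 252, 769, 298 and 727 alpha cells, and 220, 426, 334 and 403 delta cells. Cells that met none of the rules numbered 2498, 475, 1959 and 269, and 76, 256, 131 and 168 cells that met more than 1 rule were held apart. The classes carried their own markers. Mafa, a beta-cell transcription factor, was at 545 to 1670.4 CPM in Spp1-low beta cells (defined below) and at 2.06 to 36.5 CPM in alpha cells. Irx2 of alpha cells was at 137 to 164 CPM in alpha cells, and Hhex of delta cells was at 375 to 425 CPM in delta cells. The libraries shared 28 cell barcodes. Levels are UMIs per 1000000 (CPM) of all UMIs except those of 7 hormone genes, which took 40.0%, 57.7%, 40.9% and 56.5% of the UMIs of beta cells in libraries 1 to 4. They took 26.3%, 30.3%, 30.4% and 29.2% in alpha cells. A UMI tags 1 transcript end and is not divided by gene length, so levels of different genes are not ranked here.

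The promoters of 29 members matched RefSeq windows on GRCm38.p6 that run from 250 bases before to 50 bases after a gene's start. Lman1, Tmed2, Tmed7, Kdelr2, Arcn1 and Golgb1 had no matching window. The core of the unfolded protein response element, TGACGTGG on either strand, stood in 5 of the 29 genes (17.2%), against 193 of all 27025 genes with a window (0.714%). The shorter CCACG, which this core overlaps, stood in 19 of 29 genes (65.5%), against 35.5% of all genes. The bare ACGT inside the core stood in 22 of 29 genes (75.9%), against 33.8% of all genes. All genes were not matched to the 29 in base make-up, and its part in these shares was not tested. The ER stress element (CCAAT and CCACG with 9 bases between them, 0.137% of all genes) and its variant (ATTGG and CCACG with 1 base between them, 0.0444%) stood in 0 of 29, and the cyclic AMP element TGACGTCA stood in Cope alone, against 2.03% of all genes. A match describes these letters only and says nothing about binding. The windows with the unfolded protein response core are printed 5′ to 3′ on the gene's strand with the core or its reverse complement in capitals, because this is the element that the factor in question is known to recognise.

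Sec24d, chr3:123267246-123267545, plus strand: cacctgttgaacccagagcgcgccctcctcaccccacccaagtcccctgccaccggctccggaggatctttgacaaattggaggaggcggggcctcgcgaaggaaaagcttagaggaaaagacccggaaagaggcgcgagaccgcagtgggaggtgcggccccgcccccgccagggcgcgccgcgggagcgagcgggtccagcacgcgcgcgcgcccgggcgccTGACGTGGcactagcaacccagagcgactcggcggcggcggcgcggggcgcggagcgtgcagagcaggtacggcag
Copb1, chr7:114254631-114254930, minus strand: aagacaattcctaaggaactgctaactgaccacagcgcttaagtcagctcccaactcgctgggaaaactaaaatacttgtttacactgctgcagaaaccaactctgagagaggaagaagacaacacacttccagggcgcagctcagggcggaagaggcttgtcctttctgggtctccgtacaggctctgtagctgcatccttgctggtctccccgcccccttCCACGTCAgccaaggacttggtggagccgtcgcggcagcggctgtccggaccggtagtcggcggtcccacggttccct
Copb2, chr9:98563481-98563780, plus strand: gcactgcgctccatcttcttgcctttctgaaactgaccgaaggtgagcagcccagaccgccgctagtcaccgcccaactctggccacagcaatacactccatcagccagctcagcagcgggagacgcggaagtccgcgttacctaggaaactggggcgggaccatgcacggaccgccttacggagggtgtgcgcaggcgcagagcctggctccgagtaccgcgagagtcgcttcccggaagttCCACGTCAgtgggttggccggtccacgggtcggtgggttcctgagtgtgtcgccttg
Sec23a, chr12:59011968-59012267, minus strand: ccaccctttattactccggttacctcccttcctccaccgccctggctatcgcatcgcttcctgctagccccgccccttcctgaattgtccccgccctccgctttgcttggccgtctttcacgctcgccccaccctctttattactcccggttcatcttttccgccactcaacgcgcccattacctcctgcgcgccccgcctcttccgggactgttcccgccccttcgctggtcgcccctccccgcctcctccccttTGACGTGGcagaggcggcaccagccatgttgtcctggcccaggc
Kdelr3, chr15:79516158-79516457, plus strand: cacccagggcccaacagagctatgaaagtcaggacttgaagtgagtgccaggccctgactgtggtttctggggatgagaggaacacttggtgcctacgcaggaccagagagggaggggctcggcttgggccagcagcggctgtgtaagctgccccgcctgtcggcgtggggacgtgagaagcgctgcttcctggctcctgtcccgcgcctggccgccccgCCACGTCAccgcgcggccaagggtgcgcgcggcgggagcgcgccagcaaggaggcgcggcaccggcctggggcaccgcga
Sar1b, chr11:51763413-51763712, plus strand: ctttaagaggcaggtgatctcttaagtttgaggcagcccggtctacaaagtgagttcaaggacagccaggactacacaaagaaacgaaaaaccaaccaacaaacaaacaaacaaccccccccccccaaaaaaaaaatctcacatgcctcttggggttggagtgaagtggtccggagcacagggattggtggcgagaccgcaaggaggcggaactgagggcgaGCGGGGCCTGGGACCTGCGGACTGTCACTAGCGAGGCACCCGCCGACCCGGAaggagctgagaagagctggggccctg

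The core starts 26 bases before the transcript start in Sec24d, 28 before it in Copb1, 7 before it in Copb2, 30 before it in Kdelr3 and at base 7 in Sec23a. In Copb1, Copb2 and Kdelr3 it lies on the strand opposite to the gene. The Sar1b window is shown for another reason. Sar1b and Sec24a, both COPII genes, are neighbours that are transcribed away from each other. The capitals mark the 52 bases between their starts in the GENCODE annotation. The RefSeq windows used here place both starts elsewhere. By these windows the Sec24a start lies inside its GENCODE gene, farther from Sar1b, and the Sar1b start lies within the capitals. The gap of 52 bases therefore does not hold for the RefSeq starts. The levels of this pair in islet cells are given below.

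All 4 subgroups were present in every cell class and library, and their sums differed both between classes and between libraries. The 35 genes summed to 5947, 8941, 5962 and 9047 CPM in the beta cells of libraries 1 to 4 and to 6368, 6915, 6413 and 6889 CPM in alpha cells. Delta cells held 6335, 8346, 6411 and 8969 CPM, and the other cells held 3772, 4431, 3894 and 5242 CPM. The alpha sums of the 4 libraries stood closest together. With hormone genes included in the total, the sums were 3567, 3784, 3523 and 3939 in beta cells, 4694, 4816, 4461 and 4879 in alpha cells, and 4870, 5979, 4827 and 6407 in delta cells. On that scale the beta sum was below both others in each library.

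**Figure D1:**
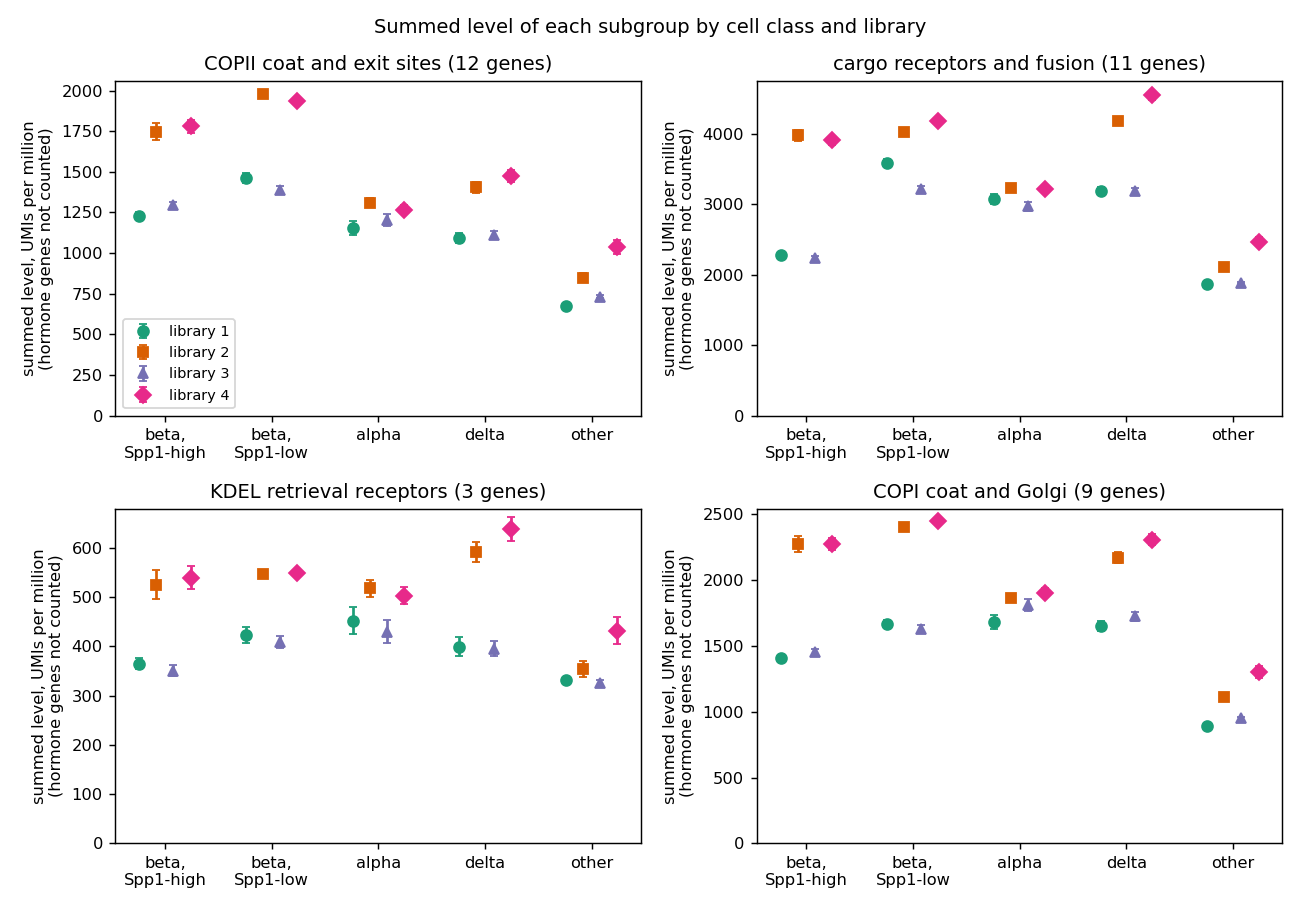
Summed level of each subgroup (CPM, hormone genes not counted, axes from 0) in 5 cell classes, with 1 symbol per library and exact Poisson 95% intervals for counting error. The COPI sum of Spp1-low beta cells was 1666, 2402, 1630 and 2444 CPM in libraries 1 to 4, while that of alpha cells was 1681, 1862, 1808 and 1904 CPM.

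Beta cells were divided by Spp1, the gene of osteopontin, a secreted phosphoprotein, at 0.5% of a cell's UMIs. Libraries 1 to 4 held 355, 131, 377 and 219 Spp1-high cells and 234, 3211, 356 and 2002 Spp1-low cells. The division is a point on a continuous scale: between 0.5% and 1% lay 76, 78, 105 and 124 cells, and between 0.25% and 0.5% lay 39, 150, 66 and 122 cells. Of the 35 genes, 0 were 1.5-fold or more higher and 0 were 1.5-fold or more lower in Spp1-high cells in every library, against 0.131% and 0.0437% of the 13726 genes tested. By any amount, 0 were higher and 21 were lower in every library, where 7.76% of all genes were higher and 20.4% were lower. The median log2 ratio of the 35 was -0.26, -0.10, -0.16 and -0.08 in libraries 1 to 4 (median -0.15), against -0.03, -0.05, -0.01 and -0.04 over all genes. Without library 1 the median over libraries was -0.08. On the scale that counts hormone UMIs, the median over libraries was 0.0051 and all genes stood at 0.04. Then 2 members were higher and 5 were lower by any amount, against 19.4% and 6.86% of all genes. At 1.5-fold 0 members were called either way on that scale, against 0.117% higher and 0.0219% lower. Hormone genes took 34.97%, 55.9%, 36.6% and 54.8% of UMIs in Spp1-high cells and 47.3%, 57.8%, 45.0% and 56.7% in Spp1-low cells.

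Among the COPII genes, 9 of 12 were lower in Spp1-high cells of every library, with a subgroup median of -0.10. Mia3 stood at 278, 392, 339 and 371 CPM in the Spp1-high cells of libraries 1 to 4 and at 389.9, 467, 381 and 430.2 CPM in Spp1-low cells. The Spp1-high value was the lower of each pair, with log2 ratios of -0.47, -0.25, -0.16 and -0.21. Sec24d, an inner coat subunit, differed by -0.22, -0.26, -0.25 and -0.16. For Sec23b, its partner in the inner coat, the differences were -0.43, -0.17, -0.36 and -0.02, the last close to 0. Sar1b was close to even, at 224, 243, 219 and 271 CPM in Spp1-high cells and 233, 255, 223 and 276 CPM in Spp1-low cells.

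Of the 4 subgroups, the cargo receptors had the median farthest from 0 (-0.25), and their largest differences were in libraries 1 and 3. Tmed3, a member of the Tmed family that packs cargo into vesicles, stood at 349.5, 518, 334 and 470.0 CPM in Spp1-high cells and at 831, 522, 746 and 503 CPM in Spp1-low cells. Its log2 ratios were -1.23, -0.01, -1.14 and -0.09, with counting errors (SE) of 0.03, 0.04, 0.03 and 0.04. Libraries 2 and 4 thus showed little or no difference, and leaving out 1 library at a time moved the median between -0.09 and -1.14. Lman1, the lectin, stood at 199, 529, 192 and 523 CPM in Spp1-high cells and at 406, 576, 325 and 609 CPM in Spp1-low cells. Its log2 ratios were -0.99, -0.12, -0.73 and -0.22, and with hormone UMIs in the total they were -0.68, -0.06, -0.52 and -0.15. Lman2 differed by -0.50, -0.13, -0.55 and -0.12. Of the 11 cargo genes, 7 were lower in every library, with a subgroup median of -0.48, -0.01, -0.41 and -0.07 in libraries 1 to 4.

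Markers of alpha cells had no shared direction beside Tmed3. The Spp1-low cells of libraries 1 and 3 held more Irx2, a transcription factor of alpha cells, at 2.69, 2.93, 1.64 and 3.75 CPM in the Spp1-high cells of libraries 1 to 4 and 23.3, 3.17, 30.1 and 3.92 CPM in Spp1-low cells, while alpha cells held 154, 164, 137 and 158 CPM. Of 7 alpha markers, 4, 6, 4 and 3 were lower in the Spp1-high cells of libraries 1 to 4. Their sum ran the other way in libraries 1 and 3, at 4567, 440, 4574 and 446 CPM in Spp1-high cells and 3525, 783, 3693 and 557 CPM in Spp1-low cells, since Ttr, which makes up most of it, was at 4297, 247, 4258 and 255 CPM in Spp1-high cells and 3025, 541, 3196 and 367 CPM in Spp1-low cells. With beta cells that held 1% or more of Gcg or Sst left out, the median Tmed3 ratio was -0.65, against -0.62 with them. The part of alpha transcripts below that limit in the result was not tested. Acinar markers summed to 4437, 0, 11.0 and 2.00 CPM in Spp1-high cells, and 2 such cells of library 1 held 1% or more of their UMIs from them. Without cells of that kind the median of the 35 genes was -0.15.

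**Figure D2:**
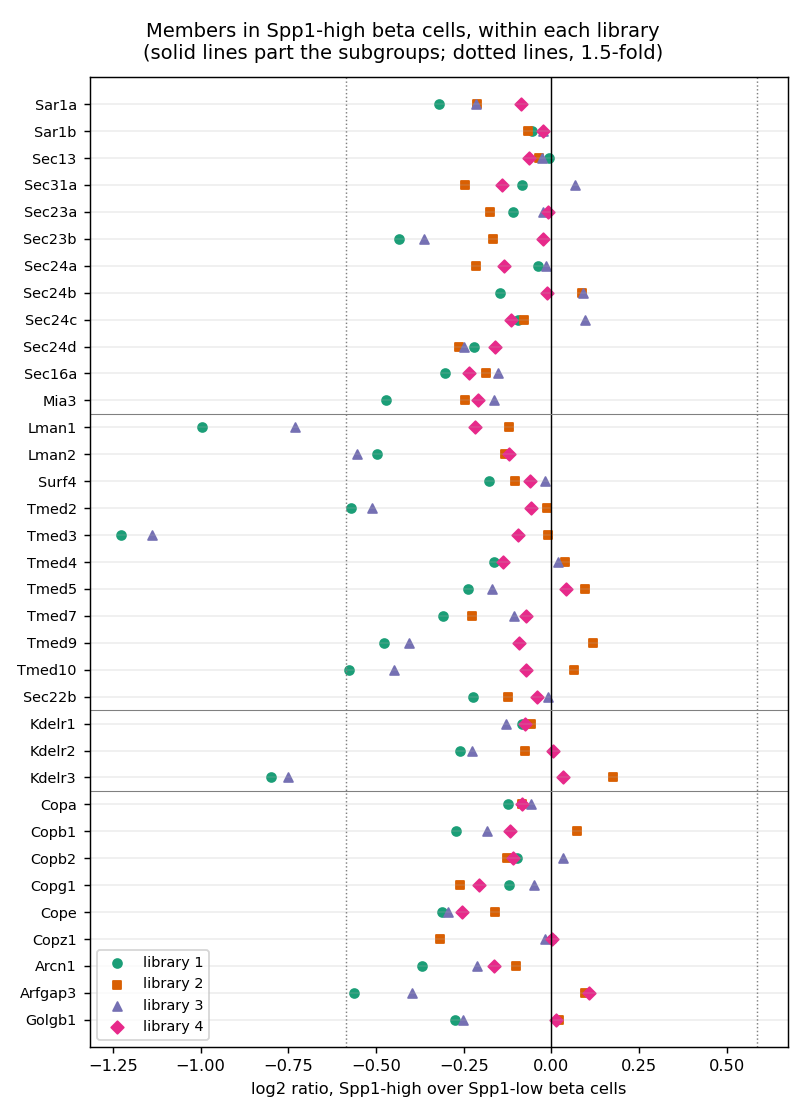
Log2 ratio of each gene in Spp1-high over Spp1-low beta cells, with 1 symbol per library, solid lines between subgroups and dotted lines at 1.5-fold. Tmed3 lies farthest to the left in libraries 1 and 3, at -1.23 and -1.14.

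Kdelr1, the receptor that retrieves ER proteins, differed little between the classes, at -0.09, -0.06, -0.13 and -0.08, and with hormone UMIs in the total its median was 0.033. Kdelr3 differed by -0.80, 0.18, -0.75 and 0.03, so its direction was not shared. Of the COPI genes, 4 of 9 were lower in every library. Cope, a subunit of the coat, stood at 170.5, 310.1, 169 and 298 CPM in Spp1-high cells and at 214, 348, 209.9 and 358 CPM in Spp1-low cells, with ratios of -0.31, -0.16, -0.30 and -0.25. Arcn1 differed by -0.37, -0.10, -0.21 and -0.16, and Copg1 by -0.12, -0.26, -0.05 and -0.21. Xbp1 itself stood at 56.4, 209, 46.3 and 212 CPM in Spp1-high cells and at 128, 228, 109 and 222 CPM in Spp1-low cells. Since the removed exons are not stated, this level does not check the deletion.

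Finer steps of Spp1 placed most of the difference in library 1 at the lowest step, on the scale without hormone genes. In library 1 the 35 genes summed to 7766 CPM in the 167 beta cells under 0.1% Spp1, and to 5559, 5704, 5039, 5400 and 5303 CPM in the steps from 0.1%, 0.25%, 0.5%, 1% and 2%. Lman1 was at 476 CPM in the lowest step and at 243, 233, 204, 202 and 193 CPM in the others. Tmed3 was at 1009 CPM in the lowest step and at 389, 412, 397, 328 and 343 CPM in the others. In library 3 the sums were 6954, 5983, 5942, 5576, 5336 and 5149 CPM, again highest in the lowest step. The Ins2 share moved with this step: its median was 31.6% in the lowest step of library 1 and 12.8% to 15.8% in the others, and 31.2% and 14.8% to 16.8% in library 3. Counting hormone UMIs, the sums of library 1 were 3816, 3633, 3566, 3273, 3464 and 3493 CPM and those of library 3 were 3652, 3824, 3542, 3507, 3389 and 3283 CPM, so the drop after the lowest step was smaller in library 1, and in library 3 the lowest step was not the highest. Libraries 2 and 4 changed more gradually, with sums of 8981, 8839, 8770, 8591, 8545 and 7926 CPM in library 2, where the top step held 11 cells, and 9156, 8905, 8951, 8569, 8514 and 8176 CPM in library 4.

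**Figure D3:**
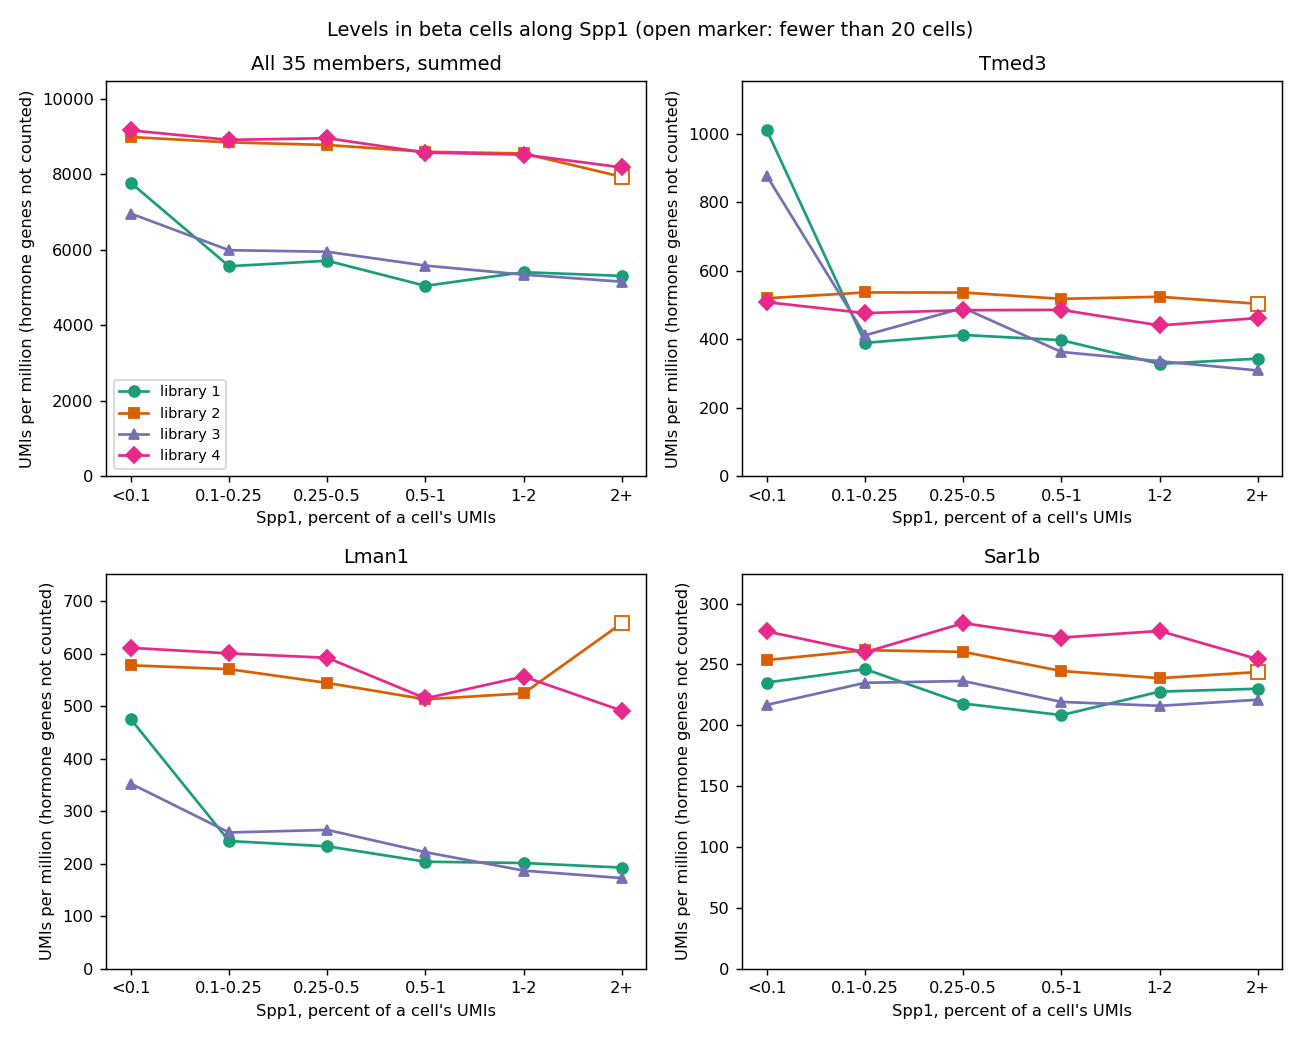
Levels (CPM, hormone genes not counted) of the summed genes, Tmed3, Lman1 and Sar1b in beta cells by their Spp1 share, low to high, with 1 line per library. In library 1, Tmed3 was at 1009 CPM in the lowest step and 343 CPM in the highest, while in library 2 it was at 519 and 503 CPM.

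Between beta and alpha cells, the 35 genes were called about as often as all genes were. Of the 35, 2 were called higher (Sar1b and Mia3) and 0 lower in beta cells at 1.5-fold in every library, against 5.48% and 4.57% of the 14212 genes tested. A count this close to the background is not a result about the list. By any amount, 8 were higher and 7 were lower in every library, against 30.2% and 32.9% of all genes. In libraries 1 to 4 the 35 genes had median log2 ratios of -0.13, 0.31, -0.16 and 0.36, against a median of -0.01 over all genes, so the direction of the whole list differed between libraries. The median over libraries was 0.10, and it was -0.11 without library 2 and also without library 4. With hormone UMIs in the total, 1 member was higher and 3 were lower, against 1.89% and 7.93% of all genes, and the median was -0.35 beside -0.20 over all genes. Beta cells had medians of 44006, 42221.5, 45314 and 37371 UMIs per cell and alpha cells of 11764, 12488, 12977 and 11251, and the part of this depth in the ratios was not tested. Plasma cell markers summed to 1170.0 CPM in the alpha cells of library 1. Without the 1 alpha cell and the beta cells that held 1% or more of acinar or plasma cell markers, the median of the list was 0.11, with 2 genes called higher and 0 lower.

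Sar1b (ENSMUSG00000020386, GRCm38 chr11:51763687-51791925) stood at 228, 254, 221 and 275 CPM in the beta cells of libraries 1 to 4 and at 90.2, 89.7, 89.9 and 93.1 CPM in alpha cells. The classes did not overlap, and the log2 ratios were 1.25, 1.41, 1.21 and 1.47 with counting errors of 0.10, 0.06, 0.09 and 0.06. Counting hormone UMIs in the total, they were 0.94, 0.70, 0.95 and 0.77, still above 1.5-fold in each library. Its paralog Sar1a was at 172, 251, 167 and 256 CPM in beta cells and at 173, 177, 167 and 172 CPM in alpha cells, so the classes were alike in libraries 1 and 3 and apart in libraries 2 and 4. Sec24a, the head-to-head neighbour of Sar1b, went the other way, at 35.5, 50.7, 34.4 and 44.4 CPM in beta cells and 56.4, 77.0, 79.4 and 70.7 CPM in alpha cells. Its log2 ratios were -0.55, -0.52, -1.01 and -0.57, which passed 1.5-fold in library 3 alone. The 2 genes of this divergent pair therefore had opposite directions in each library.

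Mia3 (ENSMUSG00000056050, GRCm38 chr1:183326725-183369553), which loads bulky cargo, stood at 318, 464, 359 and 424 CPM in beta cells and at 199.7, 227, 210.2 and 217 CPM in alpha cells. Its log2 ratios were 0.65, 1.00, 0.74 and 0.94 with counting errors of 0.07, 0.04, 0.06 and 0.04, and with hormone UMIs in the total they were 0.35, 0.30, 0.51 and 0.25. Sec13 of the outer cage was higher in beta cells by 0.29, 1.00, 0.28 and 1.10, with libraries 2 and 4 past 1.5-fold. Tmed3 was lower in beta cells, at 522, 521, 531 and 499 CPM, against 776, 732, 771 and 763 CPM in alpha cells. Its log2 ratios were -0.56, -0.48, -0.53 and -0.60, which passed 1.5-fold in library 4 alone. Spp1-low beta cells, at 831, 522, 746 and 503 CPM, were above alpha cells in library 1 and close to them in library 3, while Spp1-high cells were below alpha cells in each library.

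The other cargo genes and the COPI genes were mixed. Tmed10, another Tmed receptor, was higher in beta cells by 0.22, 0.61, 0.32 and 0.69, and Surf4 by 0.12, 0.63, 0.06 and 0.67. Copb1 was higher by 0.21, 0.68, 0.20 and 0.64. For these 3 genes the median was below 0 with hormone UMIs in the total, at -0.034, -0.11 and -0.028. Copz1, a small COPI subunit, was lower in beta cells, at 71.3, 93.9, 72.2 and 90.7 CPM, against 115, 122, 124 and 119.8 CPM in alpha cells. No KDEL receptor was named by the rule. Kdelr1 stood at 205, 226, 197 and 222 CPM in beta cells and at 204, 234, 206 and 225 CPM in alpha cells, and Kdelr2 at 170.1, 309.8, 169 and 313 CPM in beta cells and at 229, 268, 210.2 and 260.3 CPM in alpha cells.

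**Figure D4:**
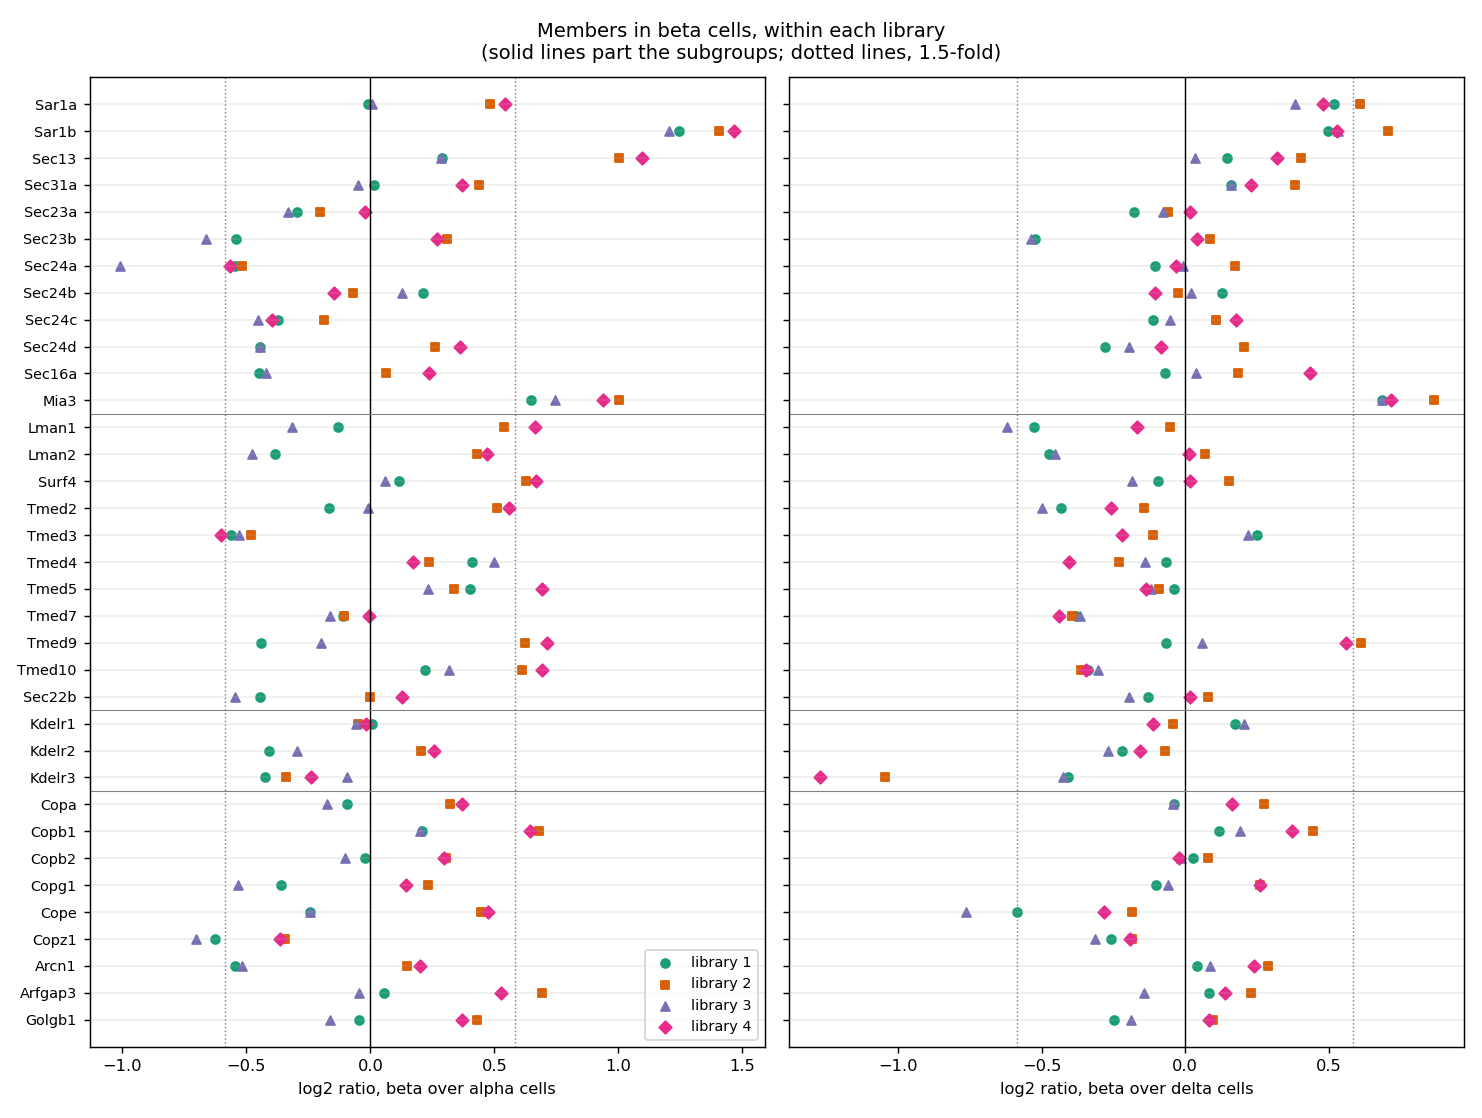
Log2 ratio of each gene in beta over alpha cells (left panel) and beta over delta cells (right panel), with 1 symbol per library, solid lines between subgroups and dotted lines at 1.5-fold. Sar1b and Mia3 lie beyond the right dotted line against alpha cells in all 4 libraries, and Mia3 also does against delta cells.

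Against delta cells, Mia3 was the gene past 1.5-fold in each library. Of 35 genes, 1 was called higher and 0 lower in beta cells, against 3.29% and 3.89% of the 14230 genes tested. By any amount, 7 were higher and 10 lower in every library, against 30.5% and 27.8%. The median log2 ratio was -0.10, 0.09, -0.08 and 0.02, so it had no shared direction, beside 0.01 over all genes. With hormone UMIs in the total, 0 were higher and 7 lower, against 1.3% and 7.77% of all genes, and the median was -0.48 beside -0.22 over all genes. The beta to delta and beta to alpha ratios share their beta cells and are not independent of each other. Acinar markers summed to 3307 CPM in the delta cells of library 1, and plasma cell markers to 1057 CPM in those of library 3. Without cells that held 1% or more of either, the list median was -0.018, with 1 gene called higher and 0 lower.

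Mia3 stood at 194, 250.3, 219.7 and 254 CPM in delta cells, with ratios of beta over delta of 0.69, 0.86, 0.68 and 0.71 and counting errors of 0.05, 0.04, 0.04 and 0.04. When hormone UMIs were counted the ratios were 0.34, 0.12, 0.34 and 0.02. Sar1b was higher in beta cells by 0.50, 0.71, 0.53 and 0.53, and Sar1a by 0.52, 0.61, 0.38 and 0.48, so both Sar1 genes had the same direction here. On the scale that counts hormone UMIs the Sar1a median was -0.029. Among cargo receptors, Tmed7 was lower in beta cells, with log2 ratios of -0.38, -0.40, -0.37 and -0.44 that varied little between libraries. Tmed2 was lower too, with ratios of -0.43, -0.14, -0.50 and -0.26. Lman1 was at 273, 574, 255 and 599.9 CPM in beta cells and at 397, 597, 398 and 675 CPM in delta cells, which put the larger gaps in libraries 1 and 3.

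Kdelr3, another KDEL receptor, was at 10.9, 10.8, 12.2 and 13.5 CPM in beta cells and at 17.8, 32.9, 19.8 and 46.9 CPM in delta cells. Its log2 ratios were -0.41, -1.05, -0.43 and -1.27 with counting errors of 0.20, 0.12, 0.16 and 0.12, and libraries 2 and 4 passed 1.5-fold. The added 10 CPM makes these ratios smaller than the ratios of the levels. Kdelr2 was lower in beta cells, with ratios of -0.22, -0.07, -0.27 and -0.16. In the COPI coat, Cope was lower in beta cells, at 186, 347, 189 and 351 CPM, against 284, 396, 327 and 430.1 CPM in delta cells, and Copz1 was lower with ratios of -0.26, -0.18, -0.31 and -0.19. Copb1 was higher by 0.12, 0.45, 0.19 and 0.37, and its median was -0.25 with hormone UMIs in the total. Subunits of the same coat thus differed in opposite directions on the scale without hormone genes.

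Against the cells outside the hormone rules, most of the 35 genes were higher in beta cells. There 15 were called higher and 1 lower, against 9.86% and 8.88% of the 15056 genes tested, and 27 were higher and 2 lower by any amount, against 42% and 25.2%. The median was 0.57, 0.94, 0.47 and 0.69 in libraries 1 to 4 (median 0.63), beside 0.11 over all genes. The counts depended on the scaling: with hormone UMIs in the total, 0 were called higher and 2 lower, against 2.31% and 16.6% of all genes. The median was then -0.12, below 0 but above the -0.21 of all genes. By subgroup, 4 of 12 COPII genes, 5 of 11 cargo genes, 0 of 3 KDEL receptors and 6 of 9 COPI and Golgi genes were called higher. With higher hormone limits for the classes, 8 genes were called higher, and the share of all genes under those limits is not given here.

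Mia3 was at 318, 464, 359 and 424 CPM in beta cells and at 72.2, 125, 95.3 and 179 CPM in the other cells, with ratios of 2.00, 1.82, 1.81 and 1.20. Tmed3 was at 118, 184, 133 and 264 CPM in the other cells, with ratios of 2.06, 1.45, 1.92 and 0.89, and Tmed4, a further Tmed receptor, had ratios of 1.73, 1.06, 1.65 and 0.70. Each of these was smallest in library 4. Golgb1 had ratios of 1.24, 1.18, 1.17 and 0.84, Arfgap3 was at 73.5, 135, 76.5 and 142 CPM in beta cells and 29.3, 43.9, 34.0 and 61.7 CPM in the other cells, and Copg1 was at 125, 201, 124 and 196 CPM in beta cells and 58.4, 78.4, 63.6 and 96.5 CPM in the other cells. Sec23b was at 69.9, 159, 66.0 and 157 CPM in beta cells and 43.8, 58.2, 45.5 and 52.9 CPM in the other cells. Kdelr3 and Tmed5 were lower in beta cells in every library. Kdelr3 was at 29.2, 30.8, 31.1 and 58.6 CPM in the other cells, with ratios of -0.90, -0.97, -0.89 and -1.54.

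The other cells were a mixture that differed between libraries. Gated on fixed markers, they held 695, 28, 526 and 1 B cell-like, 617, 32, 322 and 26 ductal-like, and 153, 113, 160 and 80 endothelial-like cells in libraries 1 to 4. Fibroblast or pericyte-like cells numbered 158, 12, 180 and 19, and their Kdelr3 was at 71.5, 85.3, 84.2 and 77.1 CPM, above each beta value. Tmed5 was at 78.3, 81.4, 68.2 and 86.3 CPM in beta cells and at 241, 278, 219 and 321 CPM in endothelial-like cells. Plasma cell-like cells, which secrete antibody, were 42 and 15 cells in libraries 1 and 3 and 0 in the others. Their 35 genes summed to 8134 and 4626 CPM, with Lman1 at 1055 and 501 CPM. Acinar-like cells, which secrete digestive enzymes, were 53 and 16 cells in libraries 1 and 3 and 2 and 1 cells in libraries 2 and 4. Their sums were 892, 4542, 968 and 3659 CPM in libraries 1 to 4. Unlike hormone UMIs, those of digestive enzymes and antibodies stayed in the total. The sums of acinar-like and plasma cell-like cells are therefore not on a like scale with those of beta, alpha and delta cells. No ratio was taken for these few cells.

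Within a class, the libraries lay farther apart in beta and delta cells than in alpha cells on the scale without hormone genes. A gene's range was taken as the highest over the lowest of the 4 library values, after 10 CPM was added to each. In Spp1-low beta cells 17 of 35 genes reached 1.5-fold, against 11.3% of the 15832 genes tested. In Spp1-high beta cells 20 did, against 20.9%, in delta cells 11, against 9.14%, and in the other cells 13, against 26.4%. In alpha cells 0 of 35 did, against 6.96%, and the widest range there was 1.35-fold, in Sec24a. All genes include many with few UMIs, whose ranges hold more counting error than those of the 35. Counting hormone UMIs, the counts were 6 of 35 in Spp1-high cells, 4 in Spp1-low cells, 0 in alpha cells, 7 in delta cells and 6 in the other cells. The background was then 29.1%, 10.8%, 5.28%, 7.73% and 21.9%. Without library 3 the count in Spp1-low cells was 11. Without library 4 it was 6 in delta cells and 2 in the other cells.

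In Spp1-low beta cells the widest ranges were in cargo receptors and the COPII coat. Tmed9, a Tmed receptor, was at 299.5, 554, 284 and 590.1 CPM in libraries 1 to 4, a range of 2.04-fold. Sec23b was at 85.8, 159.7, 76.0 and 157 CPM (1.97-fold) and Sec13 at 104, 201, 105 and 202 CPM (1.86-fold). In these 3 genes libraries 2 and 4 were the high ones and libraries 1 and 3 the low ones. Lman1 ranged 1.85-fold, Sec24d 1.75-fold and Lman2 1.74-fold. When hormone UMIs were counted, the genes that still reached 1.5-fold in this class were Sec13, Sec23b, Tmed9 and Tmed3. Tmed3 ran against the others, at 831, 522, 746 and 503 CPM, beside the Irx2 values given above.

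Of the retrieval receptors, Kdelr2 was at 192, 310.4, 184 and 313 CPM in Spp1-low cells, a range of 1.66-fold. Kdelr1, at 213, 226, 207 and 224 CPM, had the narrowest range of all 35 genes in this class, 1.09-fold. Kdelr3 was at 18.8, 10.7, 18.2 and 13.5 CPM, with higher values in libraries 1 and 3. Of the COPI genes 6 of 9 reached 1.5-fold, with Cope at 1.67-fold, Copa at 1.63-fold and Arcn1 at 1.62-fold. Just inside the limit stood Arfgap3 at 1.52-fold, and just outside it Sec31a and Sec24c, both at 1.496-fold. Over the subgroups, 3 of 12 COPII genes, 7 of 11 cargo genes and 1 of 3 KDEL receptors reached it. Library 3 was the lowest of the 4 for 28 of the 35 genes, and library 4 was the highest for 19 and library 2 for 11. Over the 15832 genes tested, library 3 was the lowest for 3096, library 4 the highest for 2459 and library 2 for 2638.

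Wide spreads were counted among genes with and without the promoter core. In Spp1-low cells, 2 of the 5 genes with TGACGTGG reached a 1.5-fold range, 11 of the 24 with a window that lacks it and 4 of the 6 with no window. In Spp1-high cells the counts were 2 of 5, 13 of 24 and 5 of 6, in delta cells 3 of 5, 4 of 24 and 4 of 6, and in the other cells 1 of 5, 9 of 24 and 3 of 6, while in alpha cells all were 0. The shares of all genes are those given above for each class. In delta cells library 4 was the highest for 29 of the 35 genes, against 2629 of the 13490 genes tested. Xbp1 was at 128, 228, 109 and 222 CPM in Spp1-low cells, 200.2, 171, 179 and 165 CPM in alpha cells and 201, 236, 195 and 224 CPM in delta cells. In Spp1-high cells it lay between 46.3 and 212 CPM.

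Shares within paralog families do not depend on the total used for scaling. They still rest on how well each transcript end is captured, so shares of a gene were compared between classes and not between genes. Sar1b made up 57.0%, 50.3%, 56.9% and 51.9% of the UMIs of Sar1a and Sar1b in the beta cells of libraries 1 to 4 and 34.3%, 33.6%, 35.1% and 35.1% in alpha cells. Delta cells had shares of 57.5%, 48.5%, 54.3% and 51.0%, which overlapped those of beta cells, and the other cells had 46.5%, 45.9%, 44.0% and 42.8%. In Spp1-high beta cells the share was 58.8%, 52.8%, 58.6% and 52.9%, and in Spp1-low beta cells it was 54.0%, 50.2%, 55.2% and 51.7%. Alpha cells were thus apart from every other class.

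Sec23b made up 78.9%, 86.1%, 77.9% and 85.8% of the Sec23 UMIs in beta cells, 80.9%, 80.3%, 80.8% and 82.9% in alpha cells, and 70.8%, 66.1%, 67.2% and 64.5% in the other cells. In beta cells libraries 2 and 4 had the higher shares. The same libraries had the higher share of Sec24d among the 4 Sec24 genes, at 26.6%, 36.7%, 27.0% and 38.1% in libraries 1 to 4, and the lower share of Sec24b, at 22.7%, 14.0%, 22.7% and 13.6%. Sec24c kept 30.3%, 29.7%, 29.8% and 29.9%, and Sec24a 20.5%, 19.6%, 20.5% and 18.4%. In alpha cells Sec24d took 29.3%, 27.5%, 26.0% and 25.1%, and Sec24a took 24.95%, 27.4%, 31.6% and 25.6%. Kdelr2 made up 44.1%, 56.7%, 44.7% and 57.0% of KDEL receptor UMIs in beta cells and 50.8%, 51.7%, 48.9% and 51.7% in alpha cells, so in beta cells it too was higher in libraries 2 and 4. This order was not particular to beta cells. In delta cells the shares of Sec23b, Sec24d and Kdelr2 were also higher, and that of Sec24b lower, in libraries 2 and 4. Sec24d was at 58.0, 80.9, 53.4 and 98.1 CPM in delta cells, and Sec24b at 35.1, 37.0, 37.5 and 36.1 CPM.

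**Figure D5:**
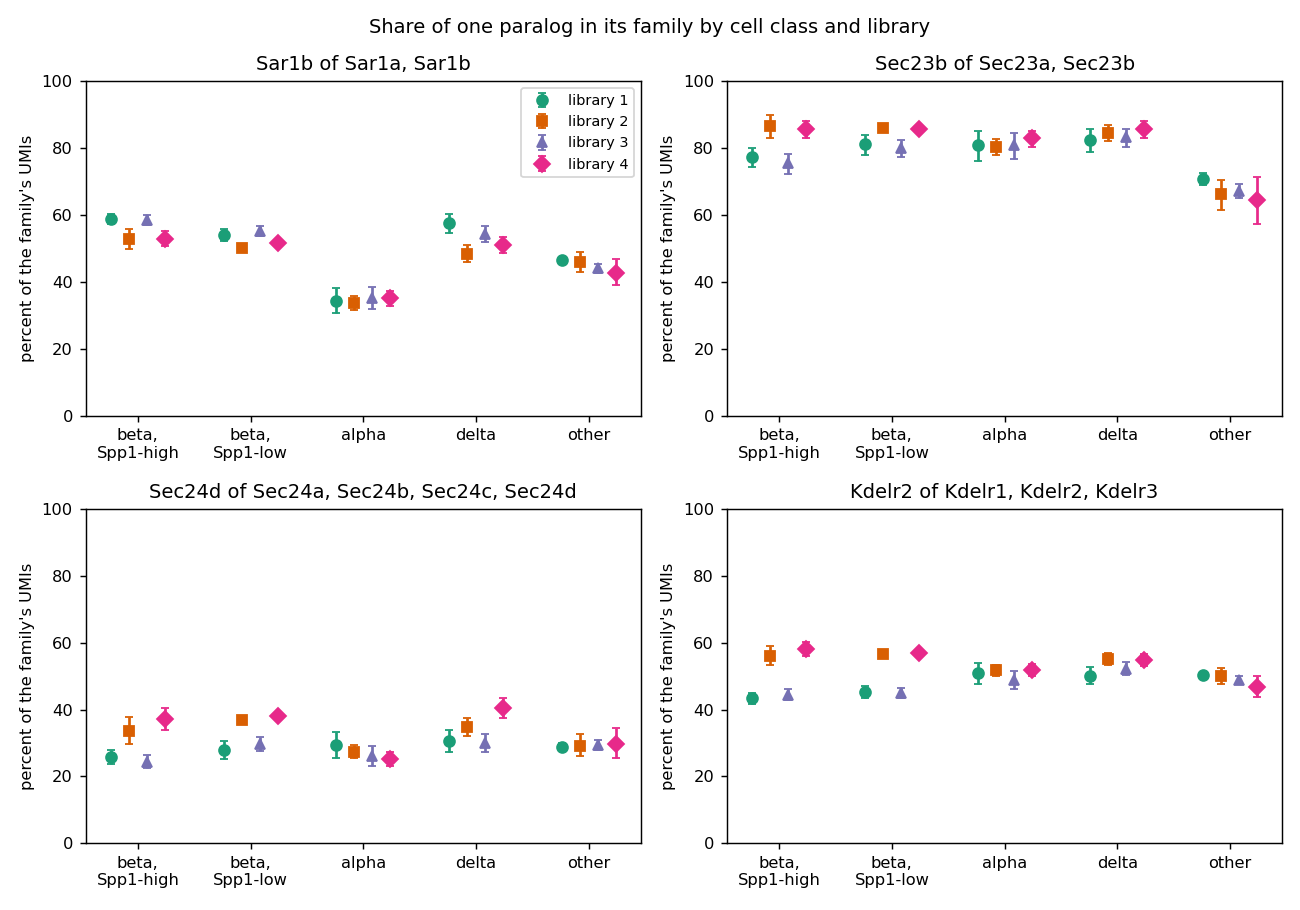
Share of each family's UMIs (percent, axes from 0) that came from Sar1b, Sec23b, Sec24d and Kdelr2 by cell class, with 1 symbol per library and exact Clopper-Pearson 95% intervals for counting error. The Sar1b share of alpha cells, between 33.6% and 35.1%, lies below that of every other class.

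A wider list of 50 genes of the same pathway, with assembly factors, tethers, SNAREs and further receptors, was taken beside the 35. Between Spp1-high and Spp1-low cells 1 of the 50 was higher and 23 were lower in every library by any amount, with a median of -0.11, where 7.76% and 20.4% of all genes did so. Copz2, a second zeta subunit of COPI, had a median of -0.51, Tmed8 of -0.39, Ergic3 of -0.31 and the SNARE Bet1 of -0.22. Against alpha cells, 1 was called higher (Tmed6, on 8, 30, 16 and 21 UMIs in the alpha cells of libraries 1 to 4) and 1 lower (Tmed8), against 5.48% and 4.57% of all genes. The rule named Tmed8 (-1.07), Cnih4 (0.76), Ergic1 (0.76) and the SNARE Stx5a (-0.74). Against delta cells 1 was called higher and 3 lower, against 3.29% and 3.89%, with Tmed6 at -2.14, Ergic1 at 1.04, Ergic3 at -0.88 and Tmed1 at -0.80. Against the other cells 11 were called higher and 2 lower, against 9.86% and 8.88%, among them Cnih4 at -1.30, Tmed8 at 1.26, the tether Uso1 at 1.13 and Gbf1, which activates Arf, at 1.10.

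Of 12 ER co-chaperones, 8 were lower in Spp1-high than in Spp1-low cells of every library. Of 17 ER translocation genes 10 were lower, where 20.4% of all genes were lower. The co-chaperone median was -0.39, and by library it was -0.88, -0.02, -0.66 and -0.13. The translocation median was -0.31, and by library it was -0.57, -0.04, -0.56 and -0.11. The larger differences were thus in libraries 1 and 3. No median of these ratios was taken for the 2 lists with hormone UMIs in the total. Both lists come from the same cells as the 35 genes. Their ranges over libraries reached 1.5-fold for 9 of 12 and 8 of 17 genes in Spp1-low cells, 0 of each in alpha cells, and 12 of 12 and 11 of 17 in delta cells, where 11.3%, 6.96% and 9.14% of all genes did in the 3 classes. For the wider pathway list the counts were 11, 1 and 4 of 50 genes in Spp1-low, alpha and delta cells. Against alpha cells, 1 co-chaperone, Sdf2l1, and 4 translocation genes were called higher in beta cells, against 5.48% of all genes.

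For 16 of the 35 genes the annotation places another gene over part of the same bases, on the same strand for 8 and on the opposite strand for 12. Kdelr3 shares bases with Ddx17 on the opposite strand. Use of strand in counting was not given in the sources used here, so reads of such pairs may have been assigned to either gene. The near-identical parts of Sar1a and Sar1b or of the Sec24 genes were not examined.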

How the data were processed

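The data are droplet RNA-seq of dissociated islets from 4 samples. The authors deposited UMI counts per gene and cell, made with Cell Ranger 6.1.2 per the file headers. The submitters' processing notes list the same version and the build mm10, and the annotation was not given in the sources used here. The pooled matrix held 66890401 entries, all whole numbers, and 0 of the 4 barcode numbers matched a sample title.

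Cells were kept with at least 500 genes and at most 20% mitochondrial UMIs, and no doublet caller was run. For each class in each library, the UMIs of a gene were summed and divided by those of all genes but 7 hormone genes (Ins1, Ins2, Iapp, Gcg, Sst, Ppy and Pyy), times 1000000 (CPM). Log2 ratios were taken within each library after adding 10 CPM. A gene was compared with at least 10 UMIs in either class, summed, in every library, which all 35 members passed in each comparison, and was called at 1.5-fold or more the same way in every library. Intervals are exact at the 95% level and cover counting error only, and the lowest count of a member in the alpha cells of a library was 43 UMIs. Coordinates on GRCm38 come from GENCODE.

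Members given in full were up to 3 per subgroup with the largest median log2 ratio, 1 direction in all libraries and 50 or more UMIs in both classes of each. For ranges they were those with the widest range in Spp1-low cells. Up to 4 genes of the wider pathway list were chosen likewise. The 4 paralog families and Xbp1 were given in any case. Tmed5, Sdf2l1, Tmed6 against alpha cells and the values by marker gate were chosen after their values were seen. The members and lists were chosen with earlier results of these data known. A cell outside the hormone rules was gated to the type with the most detected markers, at least 3. Alternatives covered the total, the cell filter (1000 genes, 10% mitochondrial UMIs), the pseudocount (1 CPM), the low-count filter, the weight of cells, hormone limits, cells with a second hormone, the Spp1 limit (1%) and each library. The ratio step was tested on simulated data. Python 3.11.15, numpy 2.4.6, scipy 1.17.1, pandas 2.3.3 and matplotlib 3.10.9 were used.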

Additional observations from a re-analysis of the deposited data

Results flagged for a closer look

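Cells that met more than 1 hormone rule, for example Ins2 and Sst together, entered no comparison. They numbered 76, 256, 131 and 168 in libraries 1 to 4. They were flagged because the coat and receptor genes were present in them, as in every class compared: the 35 genes summed to 6219, 8159.6, 6188 and 8683 CPM.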

How the results depend on the processing

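The total used for scaling moved more results than the other choices. With hormone UMIs in the total, the median of the 35 genes was 0.0051 for Spp1-high over Spp1-low cells, -0.35 for beta over alpha, -0.48 for beta over delta and -0.12 for beta over other cells. The genes called higher and lower were then 1 and 3 against alpha, 0 and 7 against delta, and 0 and 2 against the other cells. The single ratios that turned were Kdelr1 (0.033) between the Spp1 classes, Tmed10 (-0.034), Surf4 (-0.11) and Copb1 (-0.028) against alpha, Sar1a (-0.029) and Copb1 (-0.25) against delta, and Kdelr1 (-0.27) and Kdelr2 (-0.40) against the other cells. Genes with a 1.5-fold range numbered 6, 4, 7 and 6 in Spp1-high, Spp1-low, delta and other cells. Averaging CPM over cells, 1 gene was higher and 1 lower against alpha, and 0 were lower against the other cells. With a pseudocount of 1 CPM, 1 gene was lower against alpha and 1 against delta. With higher hormone limits, 8 were higher against the other cells. Apart from the total, the cause of these moves was not tested. For alternatives other than the total, the shares of all genes are not given here, so those counts have no background beside them.

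Leaving out 1 library at a time gave 1 to 2 genes lower against the other cells, and 17 to 19, 11 to 17, 6 to 11 and 2 to 13 genes with a 1.5-fold range in Spp1-high, Spp1-low, delta and other cells. The median for beta over alpha lay between -0.11 and 0.30, that for beta over delta between -0.06 and 0.02, and that for the Spp1 classes between -0.08 and -0.19. Leaving out cells with acinar or plasma cell markers, an alternative chosen after seeing the data, changed no called count by over 1.5 times. In all, 897 results under an alternative stayed as they were, 75 moved and 10 turned direction. No paired analysis was possible because no library is tied to a sample or genotype; the ratios between classes were each taken within a library. With 4 libraries of unknown genotype and 1 value each per class, spread between mice of 1 genotype could not be measured, and doublets and free RNA were not removed.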
